A study of Mus musculus with 16 samples.

Results

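Atp1b3 and Atp1b1 encode beta subunits of the sodium-potassium ATPase, the sodium pump of the plasma membrane. Their rows, 2 genes of 17128 listed for plasmacytoid dendritic cells (pDCs) and of 17721 listed for conventional dendritic cells (cDCs), were followed through all 16 RNA-seq libraries of the series. They were chosen on measured values, since the level of Atp1b3 differed widely between the genotypes, so their own differences are given as descriptions with no test. The question put to the data was whether genes that work with the pump, and genes beside it on the chromosome, moved with Atp1b3. Both genes passed the filter on low values, a mean of at least 1 TPM, in both tables. TPM is a length-corrected share of a library's transcripts, scaled to the same total in every library.

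All libraries came from spleens of C57BL/6 mice aged 6 to 8 weeks that carried the floxed Trim33 allele on both chromosomes. Trim33fl/fl mice without Cre served as the wild type (WT), and Trim33fl/fl Itgax-Cre mice as the conditional knockout (cKO). Itgax encodes CD11c, and its promoter drives Cre in CD11c+ cells, so all 3 sorted subsets could delete Trim33. Sorted pDCs (CD11c+ SiglecH+) gave 3 libraries per genotype. Among CD11c+ SiglecH- MHC II+ cells, cDC1s (CD24+ CD172a-) gave 2 per genotype and cDC2s (CD24- CD172a+) gave 3. Each library pooled cells of several mice, more of them for cKO than for WT, and mice with Cre but no floxed allele were not analysed here.

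The sodium pump exports sodium and imports potassium at the cost of ATP, and the gradients it builds set the membrane potential, cell volume and the uptake of many nutrients. Its alpha subunit carries the ATP and ion binding sites. Its beta subunit is a glycoprotein with 1 membrane span that folds together with alpha and brings it to the cell surface, so an alpha subunit without a partner is normally held back and degraded. Small FXYD proteins attach to the pair and tune its affinity for ions. The product of Atp1b3 is also known as the surface antigen CD298.

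Atp1b3 (gene ID 11933) lies on the minus strand of chromosome 9, from 96332655 to 96364431 in GRCm38.p6, and its RefSeq transcript of 1994 bases has 7 exons. Of its 2337 distinct stretches of 50 bases, the read length, 9.71% also occur in Gm1848, a gene of chromosome X annotated as a pseudogene that has no row in either table. Reads from the shared stretches cannot be assigned to 1 of them by sequence alone. Atp1b1 (gene ID 11931) lies on the minus strand of chromosome 1, from 164437099 to 164458355, with 6 exons in a transcript of 2580 bases. None of its 3028 stretches occurs in another gene's transcripts. Its last 202 bases overlap the end of Nme7 on the opposite strand, and whether strand was used in the counting is not given in the sources used here.

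Because Atp1b3 was present in every subset and Atp1b1 was abundant in pDCs and barely present in cDCs, the 250 bases before the start of each gene are shown in full (GRCm38.p6, RefSeq, 5′ to 3′ on the minus strand, chr9:96364432-96364681 for Atp1b3 and chr1:164458356-164458605 for Atp1b1). Capitals mark matches on either strand to the GC box, written GGGCGG, and to the CCAAT box. They also mark the TATA box, searched as TATANA, and the core bound by the factor PU.1, searched as GGAAGT.
Atp1b3: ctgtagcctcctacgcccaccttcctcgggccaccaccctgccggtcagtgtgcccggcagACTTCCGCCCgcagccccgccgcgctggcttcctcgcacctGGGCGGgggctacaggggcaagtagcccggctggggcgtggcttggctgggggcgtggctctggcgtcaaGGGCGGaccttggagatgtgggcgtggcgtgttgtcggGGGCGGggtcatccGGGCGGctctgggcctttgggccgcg
Atp1b1: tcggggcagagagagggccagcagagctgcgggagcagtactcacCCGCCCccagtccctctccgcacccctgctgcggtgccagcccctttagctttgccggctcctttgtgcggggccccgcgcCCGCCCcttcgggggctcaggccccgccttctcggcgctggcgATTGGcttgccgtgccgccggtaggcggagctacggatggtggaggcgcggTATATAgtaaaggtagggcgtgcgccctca
Both windows were rich in G and C, at 73.6% for Atp1b3 and 70.4% for Atp1b1. The Atp1b3 window held 5 GC boxes, the nearest starting 26 bases before the gene, and 1 PU.1 core 189 bases before it, the latter sharing bases with a GC box. It held no CCAAT or TATANA. The Atp1b1 window held 2 GC boxes, 1 CCAAT box and a TATANA match 30 bases before the start, and no GGAAGT. Among 32851 windows of this length before mouse genes, 32.7% held a GC box, 33.8% CCAAT, 22.6% TATANA and 19.7% GGAAGT. Those windows were not matched for their content of G and C, so the shares do not show what is usual for windows this rich in them. These matches are letters in a window and not sites shown to be bound.

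Depth was 18.18 to 20.2 M reads per library as estimated from the spacing of low values, and replicates of a group correlated at r = 0.991 to 0.997. At that depth 1 TPM on a 2000-base transcript corresponded to 16.5 to 21.3 reads, and 3 reads to 0.141 to 0.182 TPM, covering counting error only. Trim33 fell from 16.8 to 7.80 TPM in cDC1s (log2 fold change -1.02, limma adjusted p = 0.00035) and from 18.7 to 7.71 TPM in cDC2s (-1.17, adjusted p = 0.00013). WT and cKO pDCs had means of 22.3 and 13.6 TPM, which missed the threshold (adjusted p = 0.030) and passed it with replicate numbers as a block (adjusted p = 0.0036). Each subset's own markers summed lower in cKO than in WT, with no overlap. The cDC1 markers were also lower in cKO pDCs (323 to 346 TPM in WT, 280 to 294 in cKO), without overlap. The same held in cDC2s (200 to 237 and 168 to 194 TPM). The cDC2 markers fell likewise in pDCs (1296 to 1484 and 1058 to 1197 TPM) and cDC1s (35.6 to 36.6 and 16.8 to 22.2 TPM). The pDC markers were higher in cKO cDC1s and overlapped in cDC2s. The share of all genes lower without overlap is not given here. The pDC markers summed to 10315 to 10693 TPM in WT pDCs, 9697 to 10094 TPM in cKO pDCs and 156 to 289 TPM in cDCs. The cDC1 markers summed to 1964 to 1996 TPM in WT cDC1s, 1596 to 1614 TPM in cKO cDC1s and 168 to 346 TPM elsewhere. The cDC2 markers summed to 1204 to 1327 TPM in WT cDC2s, 871 to 986 TPM in cKO cDC2s and 16.8 to 36.6 TPM in cDC1s, but to 1058 to 1484 TPM in pDCs, which share several of them. Lists for T, B, NK cells and platelets summed to 0.20 to 52.3 TPM per library, for neutrophils to 1.46 to 129.7 TPM and for macrophages to 393 to 1645 TPM, 1 neutrophil marker being at 0 in WT cDC1s and 1 in WT cDC2s. Some of these sums moved with genotype. Neutrophil markers were 1.46 to 16.4 TPM in WT and 21.0 to 39.5 TPM in cKO cDC1s, and B cell markers 22.2 to 27.6 and 9.73 to 10.2 TPM in cDC1s and 15.8 to 25.7 and 7.94 to 9.29 TPM in cDC2s. T cell and macrophage sums were higher in cKO without overlap in pDCs and cDC1s. The part of these shifts in the results was not tested. Erythroid transcripts had the widest range in TPM among these other cell types, from 248 to 7234 TPM, and the highest sum was in WT cDC2 replicate 2.

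Atp1b3 was present in every library and stood higher in cKO than in WT in every subset. The WT pDC libraries had 177, 167 and 171 TPM and the cKO pDC libraries 482, 464 and 502 TPM. The means of 172 ± 5.2 and 483 ± 19 TPM (SD, n = 3 each) differed 2.81-fold, a log2 fold change of 1.49 ± 0.054 (SE) on the log2(TPM + 1) scale used throughout. The ranges were far apart, the lowest cKO library being above the highest WT library by more than the whole spread of either group.

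In cDC1s Atp1b3 was 237 and 227 TPM in WT and 1525 and 1684 TPM in cKO, means of 232 ± 6.8 and 1604 ± 113 TPM (SD, n = 2 each). This was a 6.92-fold difference, a log2 fold change of 2.78 ± 0.17 (SE). In cDC2s it was 77.9, 117 and 84.3 TPM in WT and 2611, 2505 and 2389 TPM in cKO, means of 93.1 ± 21 and 2502 ± 111 TPM (SD, n = 3 each). This was a 26.9-fold difference, a log2 fold change of 4.76 ± 0.14 (SE). WT cDC2 replicate 2, the library with most erythroid RNA, held the highest WT value, and without it the log2 fold change was 4.93.

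The order of the subsets was not the same in both genotypes. In WT cells Atp1b3 was highest in cDC1s and lowest in cDC2s, and in cKO cells it was highest in cDC2s and lowest in pDCs. The full order of the 6 groups ran from cKO cDC2s through cKO cDC1s, cKO pDCs, WT cDC1s and WT pDCs to WT cDC2s, and no library of one group overlapped the next group in this order. Levels of pDCs and cDCs come from separate tables, each scaled to its own total. By rank, Atp1b3 went from between place 1300 and 1952 of 17721 genes in WT cDC2s to between place 54 and 67 in cKO cDC2s, where it made up 0.239% to 0.261% of all transcripts. In cDC1s it went from place 555 and 571 to place 106 and 90, and in pDCs from between place 891 and 977 to between place 288 and 313 of 17128.

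A cKO library above every WT library was a common pattern in this series. All cKO libraries lay above all WT libraries for 10.8% of the genes tested in pDCs, 52.1% in cDC1s and 16.3% in cDC2s, so the sign of the Atp1b3 difference was shared with many genes. In bulk RNA a higher share of cells with the transcript and more RNA per cell cannot be told apart.

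Atp1b1 differed far more between pDCs and cDCs than between the genotypes. In pDCs it was 778, 726 and 819.97 TPM in WT and 749, 685 and 693 TPM in cKO, means of 775 ± 47 and 709 ± 35 TPM (SD, n = 3 each) with overlapping ranges, and a log2 fold change of -0.13 ± 0.065 (SE). It was thus the more abundant beta transcript of pDCs, 4.35 to 4.80 times the level of Atp1b3 in WT libraries and 1.38 to 1.55 times in cKO libraries.

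In cDCs Atp1b1 was barely present. It was 0.95 and 0.83 TPM in WT cDC1s and 2.30 and 2.66 TPM in cKO cDC1s, and 1.96, 5.40 and 2.94 TPM in WT cDC2s and 6.23, 6.02 and 5.89 TPM in cKO cDC2s. The WT cDC1 values correspond to an estimated 24.4 and 21.3 reads. No WT value reached the cKO values of its subset, but WT cDC2 replicate 2 came close to them. Such a separation was seen for 52.1% of all genes tested in cDC1s and 16.3% in cDC2s. The log2 fold changes were 0.88 ± 0.28 (SE) in cDC1s and 0.74 ± 0.23 in cDC2s, or 1.04 in cDC2s without that library.

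The pDC marker Siglech was also higher in cKO cDC1s without overlap, as were 52.1% of all genes tested there. Siglech stood at 3.21 and 3.71 TPM in WT cDC1s and at 7.91 and 8.76 TPM in cKO cDC1s, which is 0.0644% to 0.0745% and 0.159% to 0.176% of its WT pDC mean. Atp1b1 in the same libraries was 0.107% to 0.123% and 0.297% to 0.343% of its own WT pDC mean. The pDC markers together summed to 156 to 172 TPM in WT cDC1s and 243 to 249 TPM in cKO cDC1s, none of the 5 being at 0. Nme7, whose end overlaps Atp1b1, was 6.70 and 9.96 TPM on average (log2 fold change 0.51, limma adjusted p = 0.030, not called). In cDC2s the Siglech ranges overlapped, at 0.104% to 0.143% of the WT pDC mean in WT and 0.0797% to 0.193% in cKO, while Atp1b1 was at 0.253% to 0.697% and 0.760% to 0.804%. The part of pDC RNA or of Nme7 reads in these values was not tested.

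**Figure D1:**
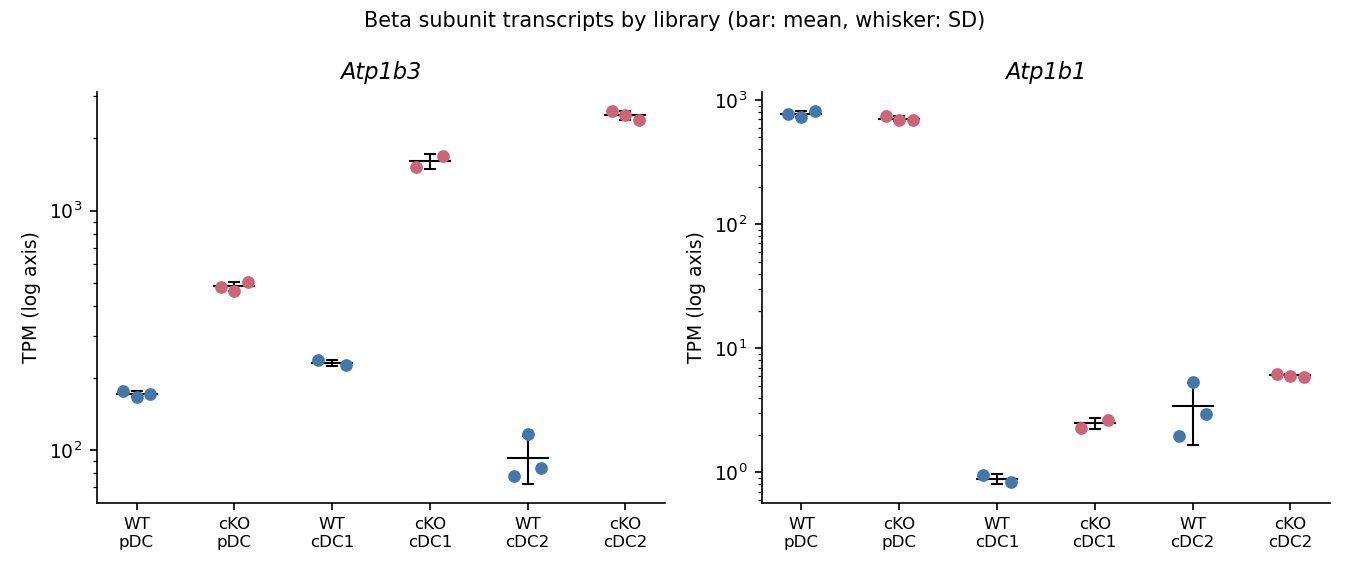
TPM of Atp1b3 (left) and Atp1b1 (right) in each of the 16 libraries on a log axis, by group, with WT in blue and cKO in red, the bar at the group mean and the whisker at 1 SD. Atp1b3 lies at 77.9 to 117 TPM in WT cDC2s and at 2389 to 2611 TPM in cKO cDC2s, and Atp1b1 separates pDCs (685 TPM or more) from cDCs (6.23 TPM or less).

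The remaining beta genes added almost nothing, so the beta pool was a matter of these 2 genes. Atp1b2, the beta subunit known from glia, was 0 to 0.23 TPM in all libraries. Among beta transcripts (Atp1b1, Atp1b2 and Atp1b3), Atp1b3 made up 18.2% ± 0.80 (SD, n = 3) in WT pDCs and 40.5% ± 1.4 in cKO pDCs. In cDCs it was the main beta subunit with or without Trim33, at 99.6% in both WT cDC1 libraries, 95.6% to 97.3% in WT cDC2s and 99.8% in every cKO library.

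The size of the beta pool followed Atp1b3 in cDCs. The summed beta TPM was 238 and 228 in WT cDC1s and 1527 and 1687 in cKO cDC1s, a difference of means of 1374 TPM. In cDC2s it was 80.05, 122 and 87.4 TPM in WT and 2617, 2511 and 2395 TPM in cKO, a difference of 2411 TPM. In pDCs, where Atp1b1 was the larger part, it was 955, 893 and 991 TPM in WT and 1231, 1149 and 1196 TPM in cKO, a difference of 245 TPM. The pDC difference was made up of 311 TPM for Atp1b3 and -65.6 TPM for Atp1b1, whose ranges overlapped. The order of the subsets by beta pool was thus pDCs, cDC1s, cDC2s in WT and the reverse in cKO, with no overlap between neighbouring groups of a genotype. These sums contain Atp1b3 and so carry the choice of the gene with them.

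**Figure D2:**
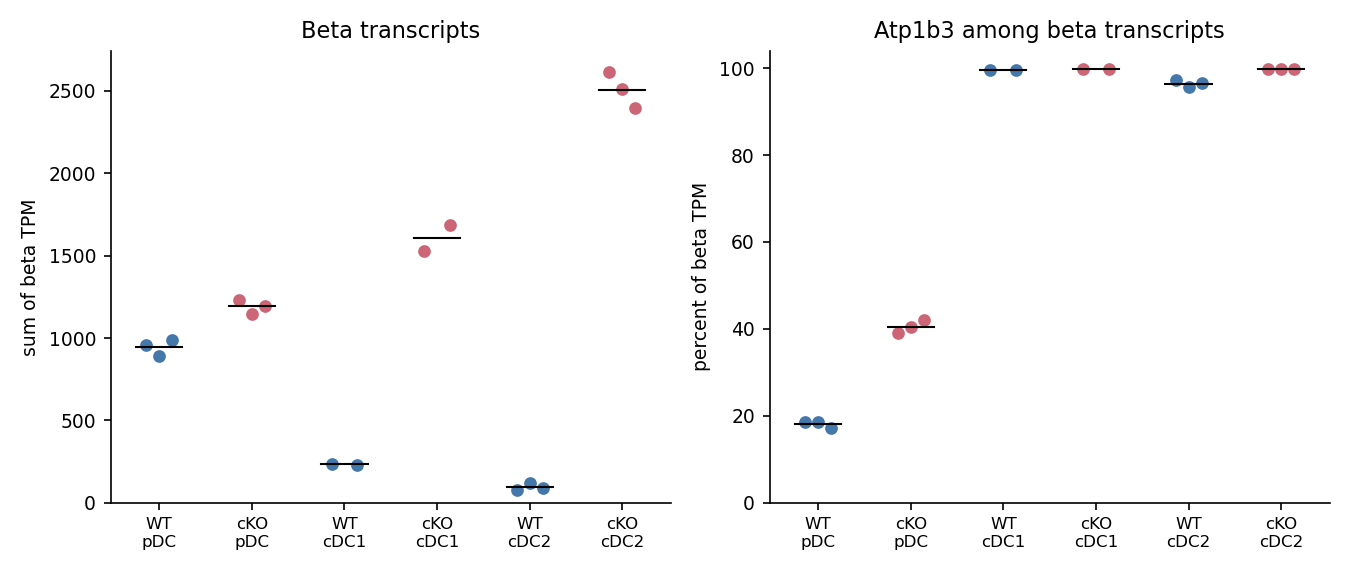
Left, summed TPM of the beta genes (Atp1b1, Atp1b2, Atp1b3) in each library, WT in blue and cKO in red. Right, the percent of this sum that is Atp1b3, with black bars at group means in both panels. The sum is 238 TPM or less in the 5 WT cDC libraries and 1527 TPM or more in the 5 cKO cDC libraries, and the share of Atp1b3 is 17.2% to 18.7% in WT pDCs and 39.1% to 42.0% in cKO pDCs.

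Partner genes of the pump were tested with limma among 11299 genes in pDCs and 11411 in cDCs. A call needed an adjusted p no higher than 0.01 and a log2 fold change of 0.5 or more in size. Of 16 partner genes (the other beta genes, FXYD, the pump-interacting Nkain proteins and the related proton-potassium pumps), 2 passed the filter in each table, namely Fxyd5 and Fxyd2. In cDC2s 1 of the 2 was called higher and none lower, against 3.59% of all genes called higher and 3.56% lower. In cDC1s limma called neither (1 had an unadjusted p under 0.05), against 15.8% and 6.56%. In pDCs it called neither (1 had an unadjusted p under 0.05), against 0.814% of genes called higher and 0.239% lower. With the replicate block 1, Fxyd5, was called, beside 335 genes in all in place of 119. The median log2 fold change of the 2 was 0.19 in cDC2s, -0.01 in cDC1s and 0.24 in pDCs, and of all genes tested -0.03, 0.17 and -0.05.

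The FXYD partner with the highest level was Fxyd5, also called dysadherin, which is known to loosen cell adhesion. In cDC2s it was 256, 252 and 273 TPM in WT and 403, 359.88 and 419 TPM in cKO, a rise of 0.59 ± 0.080 (limma adjusted p = 0.0012) that was called in all 17 alternative fits. In cDC1s it was 519 and 509 TPM in WT and 711 and 713 TPM in cKO. The adjusted p of 0.0044 passed, but the log2 fold change of 0.47 ± 0.098 was under 0.5, so it was not called. The pDC libraries had 463, 429 and 471 TPM (WT) and 749, 619 and 652 TPM (cKO, 0.56 ± 0.080, adjusted p = 0.0105, not called). With replicate numbers as a block it was called in pDCs (adjusted p = 0.0015). All cKO libraries thus lay above all WT libraries in each subset. The same held for 10.8% of all genes tested in pDCs, 52.1% in cDC1s and 16.3% in cDC2s.

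Fxyd2, the gamma subunit known from kidney, was low and was not called in any subset. It was 8.73 to 11.6 TPM in WT cDC2s and 7.89 to 10.6 TPM in cKO cDC2s (log2 fold change -0.20, limma adjusted p = 0.67), and 0.68 to 3.84 TPM in pDCs and cDC1s. In cDC1s its 2 WT libraries were 3.84 and 0.84 TPM, and without the second the log2 fold change of -0.49 became -1.19 with a call (adjusted p = 0.0090), whereas without the first it was 0.21.

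The rest of these partners were near the floor. Of the 16, 13 were listed for pDCs and 12 for cDCs, and 11 and 7 of these stayed under 1 TPM in every library. Fxyd1 (phospholemman) did not exceed 1.69 TPM. Nkain3 was 0.65, 0.53 and 1.04 TPM in WT cDC2s (an estimated 23.0 to 42.2 reads) and 0.30, 0.22 and 0.04 TPM in cKO cDC2s (1.83 to 13.1 reads). None of these genes reached the filter, so none was tested.

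**Figure D3:**
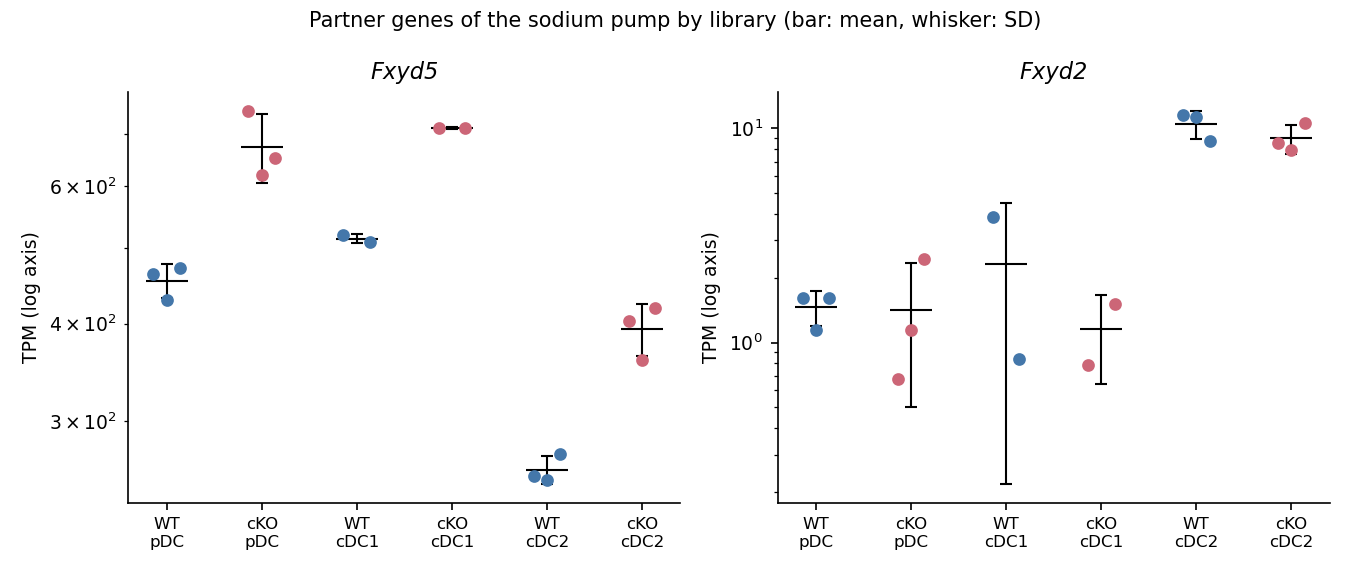
TPM of Fxyd5 (left) and Fxyd2 (right) in each library on log axes that differ between panels, WT in blue and cKO in red, with the bar at the mean and the whisker at 1 SD. Fxyd5 lies at 252 to 273 TPM in WT cDC2s and 359.88 to 419 TPM in cKO cDC2s, whereas Fxyd2 does not exceed 11.6 TPM in any library.

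**Figure D4:**
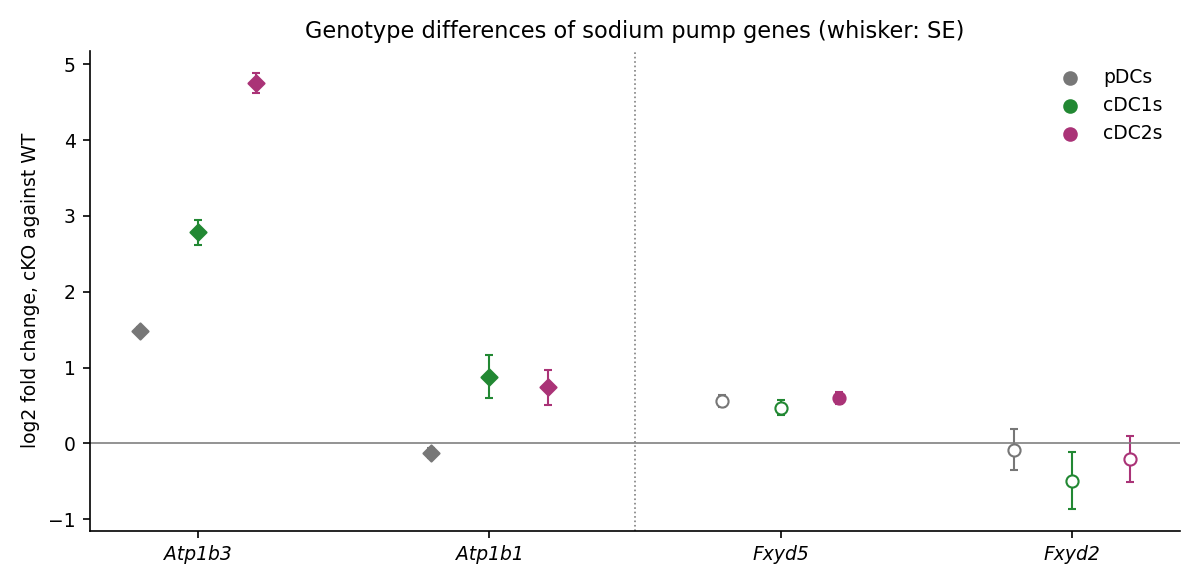
Log2 fold change of cKO against WT with its SE for 4 pump genes in pDCs (grey), cDC1s (green) and cDC2s (purple). Diamonds left of the dotted line are Atp1b3 and Atp1b1, which were not tested, and filled circles are partners called by limma while open circles are partners not called. Atp1b3 reaches 4.76 in cDC2s, where Fxyd2 is at -0.20 and Fxyd5 at 0.59.

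The genotype effects on the 2 tested partners were also compared between cDC1s and cDC2s. Limma called neither (none had an unadjusted p under 0.05), against 1.21% of all genes called higher in cDC1s and 1.35% called lower. The corresponding difference for Atp1b3, cDC1s minus cDC2s, was -1.97 ± 0.21 (SE) and is given without a test, and for Atp1b1 it was 0.14 ± 0.37.

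Among WT cells, the partners already differed between the cDC subsets. Fxyd2 was lower in WT cDC1s than in WT cDC2s (2.34 against 10.5 TPM, log2 fold change -1.94 ± 0.34, limma adjusted p = 0.00095). Fxyd5 was higher in WT cDC1s (514 against 260.3 TPM, 0.98 ± 0.090, adjusted p = 9.7e-06). Over all genes 10.9% were called higher and 20.8% lower in WT cDC1s. Atp1b3 itself was 2.49 times higher in WT cDC1s than in WT cDC2s and Atp1b1 was 0.259 times as high.

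One shift of the whole table bears on the cDC1 values. The median log2 fold change of all genes in cDC1s was 0.17 with TPM as deposited, and -0.01 after median-of-ratios scaling. On that scaling the cDC1 log2 fold changes were 2.59 for Atp1b3 and 0.77 for Atp1b1, and the split of all calls was 995 higher and 1114 lower in place of 1806 and 749. Fxyd5 kept its direction, at 0.27.

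Other P-type pumps, the wider family of ion and lipid pumps to which the sodium pump belongs, were read from a list of 34 genes with their Tmem30 partners. In cDC1s 5 of 18 tested were called higher and 1 lower, in cDC2s 1 of 18 higher and none lower, and in pDCs none of 20 by limma (6 had an unadjusted p under 0.05). Over all genes 15.8% were called higher and 6.56% lower in cDC1s, 3.59% and 3.56% in cDC2s, and 0.814% and 0.239% in pDCs. In cDC1s the listed genes had a median of 0.30 on the log2 scale, and all genes 0.17. In cDC1s Atp8b4, a lipid flippase gene, rose by 1.67 on the log2 scale (12.4 to 41.1 TPM, limma adjusted p = 0.00015). Atp13a3, which encodes a polyamine transporter, rose by 1.11 (18.9 to 42.0 TPM, adjusted p = 0.00032). Both calls held in all 17 alternative fits. Atp2a2 (SERCA2, the calcium pump of the endoplasmic reticulum), the flippase gene Atp11b and Atp10a rose by 0.71, 0.55 and 0.80, and the flippase gene Atp8a1 fell by 0.59, at adjusted p of 0.0032 to 0.0090. Without WT cDC1 replicate 1, or without either cKO cDC1 library, these 4 genes lost their calls (adjusted p of 0.0155 to 0.0636). On median-of-ratios scaling 3 of the 4 were lost, all but Atp8a1. Without WT cDC1 replicate 2, the calls of Atp2a2, Atp11b and Atp8a1 were lost too (0.0171 to 0.0267), and Atp10a and Atp8a1 lost theirs in some fits that left out a cDC2 library (0.0102 to 0.0149). In cDC2s Atp10a rose by 1.06 (2.13 to 5.48 TPM, adjusted p = 0.0016), a call lost without cKO cDC2 replicate 3 (0.0106).

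Carriers that use or share the ion gradients of the pump were read from a list of 34 genes. In this list 29 were tested in cDCs, and 5 were called lower in cDC1s and 3 in cDC2s, with none higher, beside the 6.56% and 3.56% of all genes called lower and the 15.8% and 3.59% called higher. The list's median log2 fold change was -0.01 in cDC1s, with 12 of 29 above 0, and -0.09 in cDC2s, with 10 of 29 above 0. Slc12a2, the sodium-potassium-chloride cotransporter NKCC1, fell from 18.6 to 5.71 TPM in cDC1s (log2 fold change -1.55, limma adjusted p = 1.3e-05) and from 86.2 to 52.8 TPM in cDC2s (-0.70, adjusted p = 0.00072). Slc8a2, a sodium-calcium exchanger, fell in cDC2s from 40.2 to 10.4 TPM (-1.84, adjusted p = 0.00015) and was 0.17 and 0.115 TPM in WT and cKO cDC1s. Slc20a2, a sodium-phosphate carrier, fell in cDC1s from 29.3 to 15.9 TPM (-0.84, adjusted p = 0.00061), a call lost without cKO cDC1 replicate 1 (0.0103).

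Slc4a8, a sodium-bicarbonate carrier, fell in cDC1s from 15.7 to 3.30 TPM (-1.87, limma adjusted p = 0.0052). This call was lost without WT cDC1 replicate 1 (-1.29) or cKO cDC1 replicate 1 (-1.57) or 2 (-2.17). In cDC2s its means were 22.9 TPM in WT and 7.95 TPM in cKO (-1.37, limma adjusted p = 0.018, not called). The difference between the 2 genotype effects was not called (limma adjusted p = 0.53). Slc12a5, the potassium-chloride cotransporter KCC2, fell in cDC2s from 2.93 to 0.84 TPM (-1.06, adjusted p = 0.0073), a call lost, at 0.0111 to 0.0346, without any single cKO cDC2 library or any single cDC1 library. In pDCs 1 of 24 was called higher and none lower, against 0.814% and 0.239% of all genes. This was the glycine transporter gene Slc6a9, at 2.28 TPM in WT and 7.93 TPM in cKO (1.45, limma adjusted p = 0.0038). The call was lost when any single pDC library was left out (0.0102 to 0.0180), but held with the replicate block (0.00049). Slc4a7 and Slc9a9 were the other 2 of the 8 carriers called in at least 1 subset.

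Potassium channels, through which potassium leaves again, and subunits of volume-regulated anion channels were read from 1 list, whose genes moved in both directions. In cDC1s 5 of 15 tested were called higher and 3 lower, in cDC2s 4 higher and 2 lower, and in pDCs none of 11 by limma (4 had an unadjusted p under 0.05). The shares over all genes were 15.8% and 6.56% in cDC1s, 3.59% and 3.56% in cDC2s, and 0.814% and 0.239% in pDCs. The list was chosen with earlier results of these data known, so its counts are no test of channels as a set. The list's median log2 fold change was 0.05 in cDC1s and 0.12 in cDC2s. Kcnn4, the calcium-activated channel KCa3.1, rose in cDC2s from 6.22 to 16.0 TPM (log2 fold change 1.22, limma adjusted p = 0.00031). The cDC1 means of 38.6 and 61.1 TPM gave a rise of 0.65 (adjusted p = 0.0089), a call lost in fits without any single cDC1 library, WT cDC2 replicate 1 or 2, or cKO cDC2 replicate 3 (0.0107 to 0.0688). It was lost too with median-of-ratios (0.46, adjusted p = 0.030) and quantile scaling (0.46, adjusted p = 0.031), and with no filter, a pseudocount of 0.1 or no trend (0.0103 to 0.0181). The pDC means of 8.87 and 20.3 TPM were not called (adjusted p = 0.037) but called with the replicate block (0.00036). Kcna3, the voltage-gated channel Kv1.3, and Kcnab2, which encodes an accessory subunit of such channels, rose in cDC1s by 1.74 (2.21 to 9.73 TPM, adjusted p = 0.00061) and 1.35 (19.3 to 51.0 TPM, adjusted p = 0.00031). Kcnab2 also rose in cDC2s, by 0.73 (20.9 to 35.0 TPM, adjusted p = 0.0061), a call lost, at 0.0107 to 0.0315, without WT cDC2 replicate 1 or 2, cKO cDC2 replicate 1 or 3, or either cKO cDC1 library.

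In cDC2s the accessory subunit gene Kcne3 rose 3.22-fold (3.23 to 10.4 TPM, limma adjusted p = 0.0033), a call lost without cKO cDC2 replicate 1 (0.0111) or 3 (0.0191). The inward rectifier gene Kcnj16 fell by 1.37 (12.2 to 4.12 TPM, adjusted p = 9.7e-05) and the acid-sensitive leak channel gene Kcnk5 fell by 1.28 (4.22 to 1.15 TPM, adjusted p = 0.00030), and both calls held in every alternative that gave a value. The other 5 of the 11 channel genes called in at least 1 subset were Kcnk6, Kcnk7, Kcnk12, Lrrc8b and Lrrc8c.

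Genes beside Atp1b3 were examined within 500 kb on either side, where 20 are annotated. Of these, 7 were tested in pDCs and 6 in cDCs. In cDC1s 1 of 6 was called higher and 1 lower, against 15.8% and 6.56% of all genes. In cDC2s 1 of 6 was called higher and none lower, against 3.59% and 3.56%, and in pDCs none of 7, against 0.814% and 0.239%. Rnf7, which encodes a RING subunit of ubiquitin ligases and starts its span 106506 bases beyond Atp1b3, was called higher in both cDC subsets. In cDC2s it was 53.9, 57.6 and 46.4 TPM in WT and 115, 143 and 121 TPM in cKO, a rise of 1.24 ± 0.11 (limma adjusted p = 0.00011) that was called in all 17 alternatives. In cDC1s it was 65.8 and 64.0 TPM in WT and 98.5 and 108 TPM in cKO, a rise of 0.66 ± 0.13 (adjusted p = 0.0038). That call was lost without any single cDC1 library (0.0207 to 0.0354), with FPKM (0.0188) and with both rescalings (0.0403 and 0.0508). In pDCs it was 62.4, 64.0 and 66.5 TPM in WT and 71.7, 80.1 and 71.6 TPM in cKO (0.21, adjusted p = 0.13).

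No other neighbour of Atp1b3 was called higher. Tfdp2, a partner of E2F factors and the nearest tested gene at 9009 bases, had a log2 fold change of 0.53 in cDC1s (limma adjusted p = 0.011), 0.07 in cDC2s and 0.04 in pDCs. Rasa2, a Ras GTPase-activating protein gene 174869 bases away, fell in cDC1s by 0.63 (15.1 to 9.41 TPM, adjusted p = 0.0037) and was at -0.02 in cDC2s. The Rasa2 call was lost without WT cDC1 replicate 1 or either cKO cDC1 library (0.0214 to 0.0366). Atr, Xrn1 and Zbtb38 were not called in any subset, with log2 fold changes from -0.41 to 0.37, nor was Gk5 in pDCs (-0.07).

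Around Atp1b1, 21 genes of the same window were read, of which 9 were tested in pDCs and 6 in cDCs. In cDC1s 1 of 6 was called higher, in pDCs 1 of 9 lower and in cDC2s none, beside 15.8%, 0.239% and, for both directions in cDC2s, 3.59% and 3.56% of all genes. BC055324, 442290 bases away, rose in cDC1s from 6.27 to 13.5 TPM (log2 fold change 0.99, limma adjusted p = 0.0030), a call lost without WT cDC1 replicate 1 or either cKO cDC1 library (0.0207 to 0.0262). F5 (coagulation factor V), 216822 bases away, fell in pDCs from 6.44 to 2.40 TPM (-1.13, limma adjusted p = 0.0089). The F5 call was lost when any single pDC library was left out (0.0163 to 0.0527). It was lost too with FPKM, both rescalings, no filter or no trend (0.0103 to 0.0320), but held with the replicate block (0.0018). In cDC2s the largest value was 0.67 for BC055324 (limma adjusted p = 0.016, not called). Blzf1, Ccdc181, Mettl18, Nme7 and Slc19a2 were not called in any subset, nor were Dpt and Xcl1 in pDCs.

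**Figure D5:**
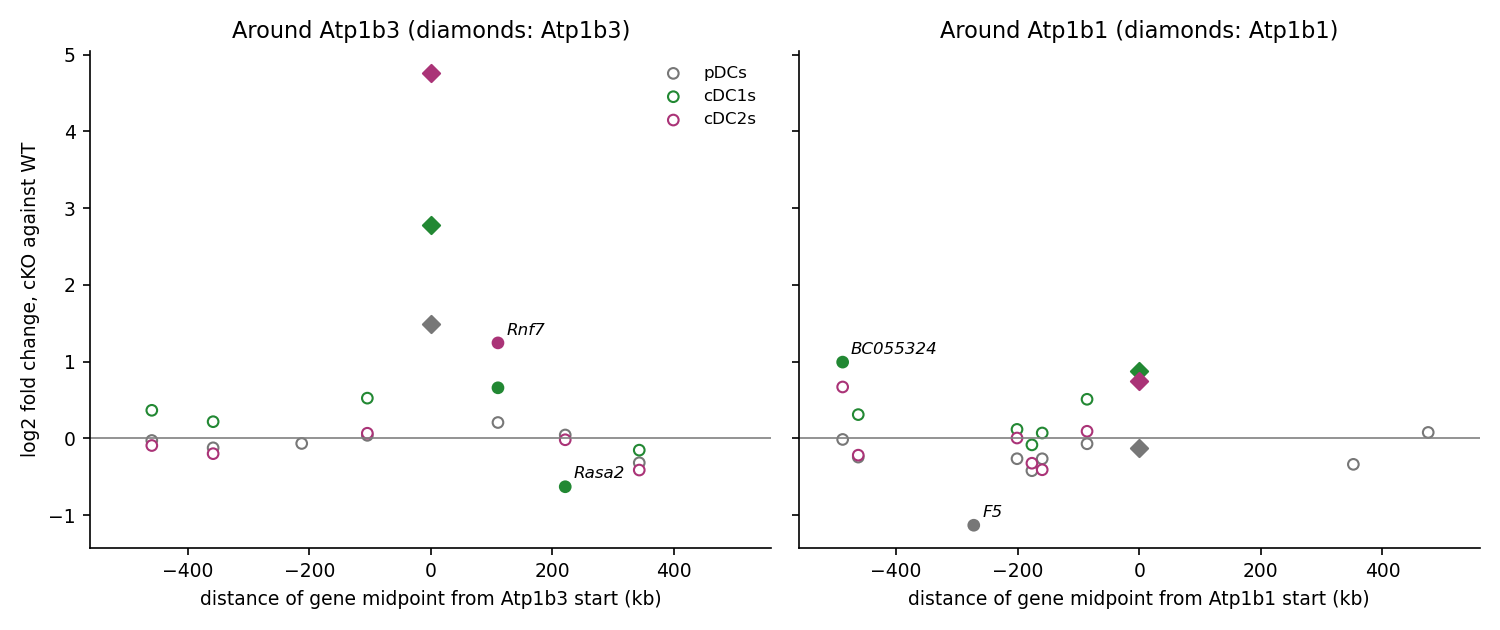
Log2 fold change of cKO against WT for the genes tested within 500 kb of Atp1b3 (left) and Atp1b1 (right), by the distance of the gene's midpoint from the start of the subunit gene in kb along the chromosome, in pDCs (grey), cDC1s (green) and cDC2s (purple). Diamonds are the subunit genes, filled circles genes called by limma and open circles genes not called. On the left Rnf7 alone is called higher, at 1.24 in cDC2s and 0.66 in cDC1s.

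Likeness to each beta gene was taken as Pearson's r of log2(TPM + 1) over the 10 cDC libraries among 11411 genes, as a description, since these libraries form 4 groups and share their depth and scaling. The 5 genes nearest to Atp1b3 were its neighbour Rnf7 (r = 0.98), the unnamed gene with ID 105246618 (0.98), Flrt3 (0.97), which encodes a leucine-rich membrane protein, Cgn (0.96), which encodes the tight junction protein cingulin, and Gm17783 (0.96). Over the 6 pDC libraries their r with Atp1b3 was 0.85, -0.43, 0.90, 0.99 and 0.71. Flrt3 averaged 0.10 TPM in WT cDC1s and 0.19 TPM in WT cDC2s against 51.5 and 178.7 TPM in the cKO groups. Cgn averaged 0.02 and 0.09 TPM in WT and 5.20 and 6.04 TPM in cKO, so both WT groups were at or near the level of 3 reads.

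The 5 genes nearest to Atp1b1 over the cDC libraries were Lxn (r = 0.98), Pigg (0.98), Adora2b (0.97), Kcne3 (0.97) and St6galnac6 (0.97). Over the pDC libraries their r with Atp1b1 was -0.24, 0.80, -0.32, -0.14 and -0.01. Among the pump genes, r with Atp1b3 over the 10 cDC libraries was 0.58 for Fxyd5, 0.49 for Atp1b1 and -0.20 for Fxyd2. With Atp1b1 it was 0.63 for Fxyd2 and -0.35 for Fxyd5.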

How the data were processed

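Splenic pDCs, cDC1s and cDC2s were sorted and sequenced on BGISEQ-500 (single-end reads of 50 bases). As their methods state, the authors filtered reads with SOAPnuke, mapped them with Bowtie2 2.2.5 and estimated expression with RSEM 1.2.12. They also used HISAT2 2.0.4 for alignments to mm10. The authors deposited TPM values as 1 table of pDCs and 1 of cDCs, with each library scaled to its table's genes. FPKM is the other unit the authors deposited. The transcript reference and strand setting are not given in the sources used here. Each of the 32 columns of values belonged to a named library.

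TPM values are not counts, so limma 3.58.1 (R 4.3.3; lmFit, eBayes with trend) was fitted to log2(TPM + 1) in place of the authors' DESeq2, with their thresholds. This scale understates changes of low genes. The test took genes whose mean TPM reached 1, in 6 pDC libraries or in 10 cDC libraries as 4 groups. Two-sided p-values were adjusted by Benjamini-Hochberg over the whole table. TPM errors are SDs and fold change errors SEs. The fits were run on simulated data with independent normal noise and known changes added. Such data lack shared replicate deviations and a table-wide shift, so this was a check of the calculation only. p-values measure the spread between these libraries. Members and gene lists were chosen with earlier results of these data known, so counts of called list genes are no test of a list.

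Some genes are not reported here. Named were the other tested pump partners, up to 6 called genes with the largest change per transport list, tested genes within 500 kb of a member and the 5 genes most like each member. Same-numbered pDC libraries deviated together (r = 0.31, 0.39 and 0.21), so the numbers were taken to pair them. The main pDC fit left this pairing out, as do all pDC calls and shares given without naming the replicate block. cDC1 (-0.23) and cDC2 (-0.25, 0.25 and -0.16) libraries were not paired. Depth was estimated from the step of low FPKM values (scan of 12 to 30 M reads), with GENCODE transcript lengths, and reads of Atp1b1 from its FPKM and transcript length. Alternatives were a pseudocount of 0.1, no filter, FPKM, median-of-ratios and quantile scaling, eBayes without trend, the replicate block and each library left out. Tables were handled with pandas 2.3.3 and numpy 2.4.6 under Python 3.11.15 and plotted with matplotlib 3.10.9.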

Additional observations from a re-analysis of the deposited data

Results flagged for a closer look

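The difference between the genotype effects in cDC1s and in cDC2s passed the limma threshold for 3 transport genes named in the report. Slc8a2 differed by 1.77 ± 0.27 (SE, adjusted p = 0.0042), with mean TPM of 0.17 in WT and 0.115 in cKO cDC1s against 40.2 and 10.4 in cDC2s. Kcnk5 differed by 1.33 ± 0.21 (adjusted p = 0.0051), with 0.195 and 0.235 TPM in cDC1s against 4.22 and 1.15 TPM in cDC2s. Both genes were near the level of 3 reads on a 2000-base transcript in WT cDC1s, so a fall there was not detectable at this depth. Slc12a2 differed by -0.85 ± 0.14 (adjusted p = 0.0053), falling more on the log2 scale in cDC1s (18.6 to 5.71 TPM) than in cDC2s (86.2 to 52.8 TPM). The calls of a difference for Slc8a2 and Kcnk5 were lost with a pseudocount of 0.1 (limma adjusted p = 0.0346 and 0.0352). That for Slc8a2 was also lost with no filter (0.0147). All 3 calls of a difference were lost with the replicate block (0.0168 to 0.0224). They were lost too in most fits that left out a library, at adjusted p of 0.0110 to 0.0323, including each fit without a cDC1 library.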

How the results depend on the processing

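Atp1b3 kept its direction in every subset under all 13 alternatives in pDCs and 17 in cDCs, from 1.46 to 1.53 in pDCs, 2.59 to 2.85 in cDC1s and 4.64 to 4.93 in cDC2s, and median-of-ratios scaling gave the 2.59. Atp1b1 in cDC1s was 1.38 with a pseudocount of 0.1, 0.61 with FPKM and 0.77 with median-of-ratios scaling, beside 0.88. Genes called in pDCs were 119, but 24 with no filter, 56 without the trend and 335 with the replicate block, and 12 to 97 with a library left out (12 without WT pDC replicate 3). The cDC1 count of 2555 ranged from 800 to 2888, the cDC2 count of 816 from 316 to 907 and the difference count of 292 from 77 to 282 with a library left out, the lowest being without cKO cDC1 replicate 1, cKO cDC2 replicate 3 and cKO cDC1 replicate 1. With the block the difference count was 145. FPKM split the cDC2 calls into 524 higher and 335 lower in place of 410 and 406, and quantile normalization the cDC1 calls into 1060 and 962. With the numbers of the cKO cDC1 libraries exchanged, an alternative chosen after seeing the data, the block gave 2156 calls in cDC1s (2290 as labelled). Pump partners called in pDCs were 1 with a pseudocount of 0.1, FPKM, median-of-ratios scaling or the block, each time Fxyd5. With a library left out, 0 to 1 were called in cDC1s, the 1 being Fxyd2 without WT cDC1 replicate 2. With a library left out, Fxyd2 ranged from -0.37 to 0.15 in pDCs, with the sign changed without cKO pDC replicate 1, and from -1.19 to 0.21 in cDC1s, with the sign changed without WT cDC1 replicate 1. A lone library left in a cDC1 group was assumed to vary like the other groups. The block changed no other call of a pump partner or neighbour, but ended those of Atp10a (0.0101), Atp8a1 (0.0156) and Slc4a8 (0.0120) in cDC1s and Slc12a5 (0.0139) in cDC2s, where the numbers were not taken to pair libraries. With no filter the calls of Atp10a, Atp2a2, Atp8a1 and Slc4a8 in cDC1s, Kcnab2, Kcne3 and Slc12a5 in cDC2s and Slc6a9 in pDCs were lost (limma adjusted p up to 0.0190). Atp10a in cDC1s and Slc12a5 in cDC2s were lost with a pseudocount of 0.1 (0.0116 and 0.0214), Atp8a1 without the trend (0.0117), Atp10a and Atp11b with quantile normalization (0.65 and 0.37 on the log2 scale) and Atp11b with FPKM (0.47). The causes were not tested.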
